A study of Homo sapiens with 9 samples.

Results

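The comparison described here asks what changed in hypoxic SW480 cells when 5-fluorouracil was combined with sulforaphane. It sets the 3 libraries labelled SFN+5-FU against the 3 libraries labelled SFN, which are 6 of the 9 libraries of the series. Members were chosen by their labels alone. Genes entered when their mean over all 9 libraries reached 1 FPKM (fragments scaled to transcript length and to the library's total), which held for 12662 of the 41041 genes in the table.

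SW480 is an established human colorectal cancer line with an APC mutation. All groups, the controls included, were kept at 1% oxygen for 48 h. The control group received hypoxia alone, the SFN group hypoxia with sulforaphane at 25 µM, and the SFN+5-FU group hypoxia with an agent that the treatment text calls "sulforaphiluracil" and spells out as SFN + 5-FU. The dose of 5-FU and the dose of sulforaphane in the combination were not stated in the labels. The samples hold no group on 5-FU alone and none in normal oxygen, so an effect of 5-FU by itself cannot be told apart from an effect of the pair. The design text calls the 3 libraries of a group biological replicates without saying whether they came from separate cultures, and p-values then measure the spread between these libraries. Poly(A) RNA from whole cultures was sequenced, in which fewer cells of a kind and less RNA per cell cannot be told apart.

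Sulforaphane is an isothiocyanate from cruciferous vegetables. It modifies cysteines of KEAP1, which frees the transcription factor NRF2 to switch on antioxidant and detoxifying genes. 5-Fluorouracil is a uracil analogue that cells turn into nucleotides. Its deoxynucleotide blocks thymidylate synthase, the enzyme that makes thymidylate for DNA, and its ribonucleotide enters RNA, where it disturbs RNA processing. In low oxygen, HIF-1 escapes degradation and raises glucose transporters, glycolytic enzymes and pH regulators.

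In the SFN group, the library labelled SFN replicate 2 had values close to those of the SFN+5-FU group. Across the tested genes its log2(FPKM + 1) values correlated at 0.993 with each SFN+5-FU library, against 0.963 with SFN replicate 1 and 0.968 with SFN replicate 3. Genes are not independent replicates, and these coefficients are descriptions. Its value fell inside the range of the 3 SFN+5-FU libraries for 56.5% of genes. The corresponding share was 16.2% for SFN replicate 1, 18.6% for SFN replicate 3 and 10.4% to 11.5% for the controls. Each SFN+5-FU library in turn fell inside the range of the other 2 and SFN replicate 2 for 44.1% to 55.8% of genes. On this measure SFN replicate 2 was as close to the SFN+5-FU libraries as they were to each other. The median absolute log2 difference of SFN replicate 2 was 0.0563 from the SFN+5-FU mean and 0.228 from the mean of SFN replicates 1 and 3. Whether the library is mislabelled was not tested, and each result below is given with and without it.

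With all 9 libraries in one limma fit, 1 of 12662 genes (0.0079%) passed at an adjusted p of 0.05, and it was lower with SFN+5-FU. At an unadjusted p of 0.05, 2249 genes (17.8%) were higher and 1733 (13.7%) lower. Without SFN replicate 2, 6478 genes (51.2%) passed, 3774 higher (29.8%) and 2704 lower (21.4%), of which 138 were higher and 131 lower by at least 2-fold. The split depended on scaling, with 3022 higher and 3263 lower after median-of-ratios scaling, 3123 and 3134 after quantile normalization and 3471 and 3416 after a correction for GC content and length. The 3 SFN+5-FU values lay above all 3 SFN values for 1344 genes (10.6%) and below all of them for 1304 (10.3%). Leaving out any other single library gave 0 or 1 gene, so SFN replicate 2 alone decides the count. It was left out because of its own values, and 2 SFN libraries then remain, so the second count describes the contrast with SFN replicates 1 and 3 and is no independent evidence for the labelled comparison. In what follows, "rose" and "fell" refer to the fit without SFN replicate 2 at an adjusted p of 0.05. Apart from ENSG00000260342, no named gene passed with all 9 libraries, where their adjusted p was 0.134 or more. Without SFN replicate 2, the calls for ADM, ARPIN-AP3S2, BIRC3, CTSD, DUT, EBP, EIF4B, EPCAM, EPHB3, EXOSC10, EXOSC4, FEN1, KLF5, MTREX, PDIA6, PSMA7, RNASEK-C17orf49, RPL7A, TCF7, TKT and UCK2 were lost when 1 further library was left out, at adjusted p of up to 0.191. Of these, EIF4B, EXOSC10, MTREX, PDIA6, TKT and UCK2 kept their calls under the other settings run, and the rest, with B2M, MT-CO2, MT-ND4 and SLC1A5, lost theirs under at least 1 other filter, scaling, weighting, fit or correction.

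For the genes called without it, SFN replicate 2 can be placed on a scale on which 0 is the mean of SFN replicates 1 and 3 and 1 is the mean of SFN+5-FU. Over the 6478 genes its median position was 0.94, with quartiles of 0.81 and 1.06, and 95.7% of genes lay above 0.5. Of the 269 genes that changed by at least 2-fold, 252 lay above 0.75 and 4 at or below 0.5.

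**Figure D1:**
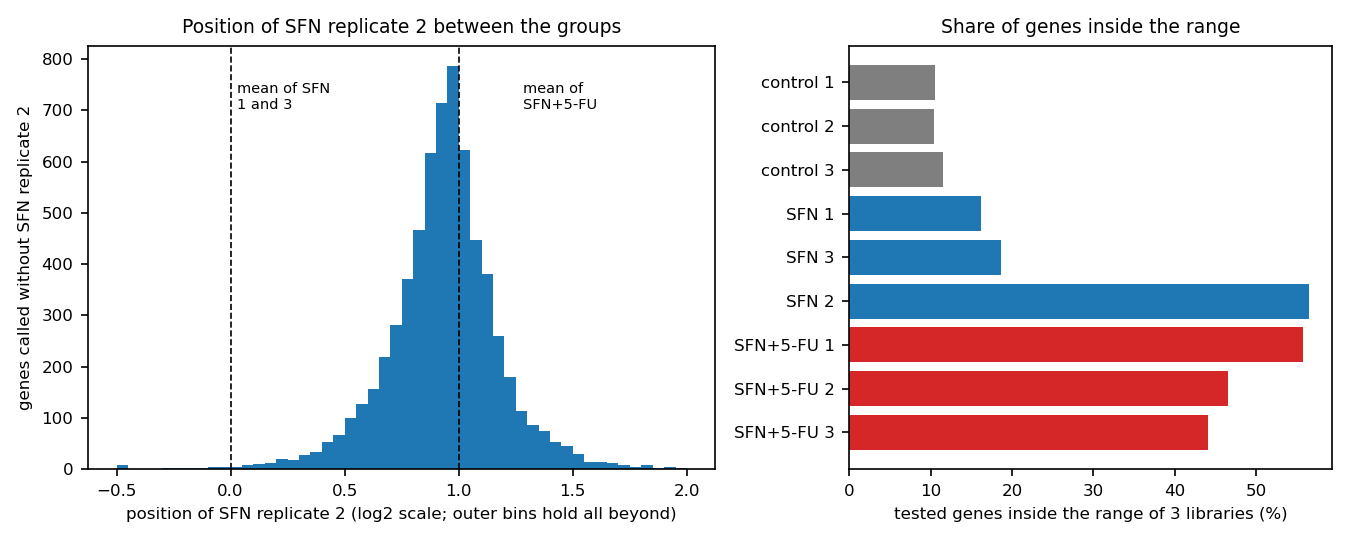
The left panel is a histogram of the position of SFN replicate 2 on the log2 scale (horizontal axis) for the 6478 genes called without it (vertical axis, number of genes), with dashed lines at the mean of SFN replicates 1 and 3 (0) and the mean of SFN+5-FU (1). The right panel gives, for each library, the percentage of the 12662 tested genes whose value lay inside the range of 3 libraries, namely the 3 SFN+5-FU libraries or, for a library of that group, the other 2 and SFN replicate 2. SFN replicate 2 reached 56.5%, and SFN replicates 1 and 3 reached 16.2% and 18.6%.

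The gene that passed in both fits was ENSG00000260342, which has no symbol and which GENCODE release 29 lists as protein coding with an overlapping locus. Values below are always in the order of replicates 1, 2 and 3. It had 30.1, 19.9 and 23.6 FPKM in the SFN libraries and 2.11, 4.15 and 2.58 FPKM in the SFN+5-FU libraries, and the controls averaged 17.8 ± 5.53 (SD, n = 3). All SFN+5-FU values lay far below all SFN values. The log2 change was -2.71 with all 9 libraries (adjusted p = 0.0273) and -2.84 without SFN replicate 2 (adjusted p = 8.45e-05). Reads of overlapping genes can be shared out differently between libraries, so its level is uncertain. Among genes that changed by at least 2-fold, 3 others kept SFN replicate 2 nearer the other SFN libraries and were named after their values were seen. The read-through locus RNASEK-C17orf49 had 26.3, 20.6 and 19.1 FPKM in the SFN libraries and 6.21, 16.3 and 8.03 FPKM in the SFN+5-FU libraries. The read-through locus ARPIN-AP3S2 was listed at 0, 0 and 0.93 FPKM in the SFN libraries and 1.34, 2.17 and 1.9 FPKM in the SFN+5-FU libraries. Read-through loci share exons with their neighbours, and their assignment is uncertain for the same reason. The last of them was CA9, carbonic anhydrase 9, described with the hypoxia genes.

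The 5 largest increases without SFN replicate 2, among genes with a mean of at least 5 FPKM, were TXNIP, IGHE, CSF3, IL11 and PSMC3IP. TXNIP encodes a thioredoxin-binding arrestin that limits glucose uptake. It had 13.1, 165 and 15.1 FPKM in the SFN libraries and 176, 161 and 155 FPKM in the SFN+5-FU libraries, and control libraries averaged 18.4 ± 3.46 (SD, n = 3). SFN replicates 1 and 3 were near the controls, and SFN replicate 2 was inside the SFN+5-FU range. The log2 change was 3.45 (adjusted p = 5.3e-06) without SFN replicate 2 and 2.29 (adjusted p = 0.134) with all 9 libraries. The cytokine gene CSF3 had 0.84, 10.3 and 1.04 FPKM in the SFN libraries and 9.23, 10.3 and 12.1 FPKM in the SFN+5-FU libraries, a change of 2.57 (SE 0.104, adjusted p = 5.3e-06). IL11, a cytokine of the interleukin-6 family, had 1.96, 13.5 and 1.64 FPKM in the SFN libraries and 11.9, 14.2 and 17.7 FPKM in the SFN+5-FU libraries. For both cytokines SFN replicates 1 and 3 were low and the other 4 libraries high. PSMC3IP, a recombination cofactor, had 6.22, 29.4 and 8.56 FPKM in the SFN libraries and 28.9, 30.7 and 30.9 FPKM in the SFN+5-FU libraries. IGHE, the immunoglobulin epsilon constant region, was listed at 1.48, 21.6 and 3.86 FPKM in the SFN libraries and 19.3, 21.2 and 22.2 FPKM in the SFN+5-FU libraries.

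The 5 largest decreases were DHRS2, LINC02943, IGFBP3, EGLN3 and SLC5A3. DHRS2, a short-chain dehydrogenase, had 10.6, 2.25 and 17.2 FPKM in the SFN libraries and 2.39, 1.82 and 1.46 FPKM in the SFN+5-FU libraries. IGFBP3, a secreted binding protein for insulin-like growth factors, had 179, 56 and 153 FPKM in the SFN libraries and 53, 40.3 and 49 FPKM in the SFN+5-FU libraries, against 384 ± 24.7 FPKM in controls (SD, n = 3). Values were highest in the controls and lowest with SFN+5-FU, where they did not overlap those of any SFN library. Its log2 change was -1.79 (adjusted p = 1.75e-05) without SFN replicate 2 and -1.27 (adjusted p = 0.134) with all 9 libraries. SLC5A3, the sodium and myo-inositol cotransporter, had 56.4, 18.5 and 47.3 FPKM in the SFN libraries and 17.6, 14.8 and 14.5 FPKM in the SFN+5-FU libraries, also without overlap, and fell by 1.67 (SE 0.106, adjusted p = 1.66e-05). The long noncoding RNA LINC02943 had 4.77, 0.95 and 4.38 FPKM in the SFN libraries and 0.32, 0.52 and 0.72 FPKM in the SFN+5-FU libraries.

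**Figure D2:**
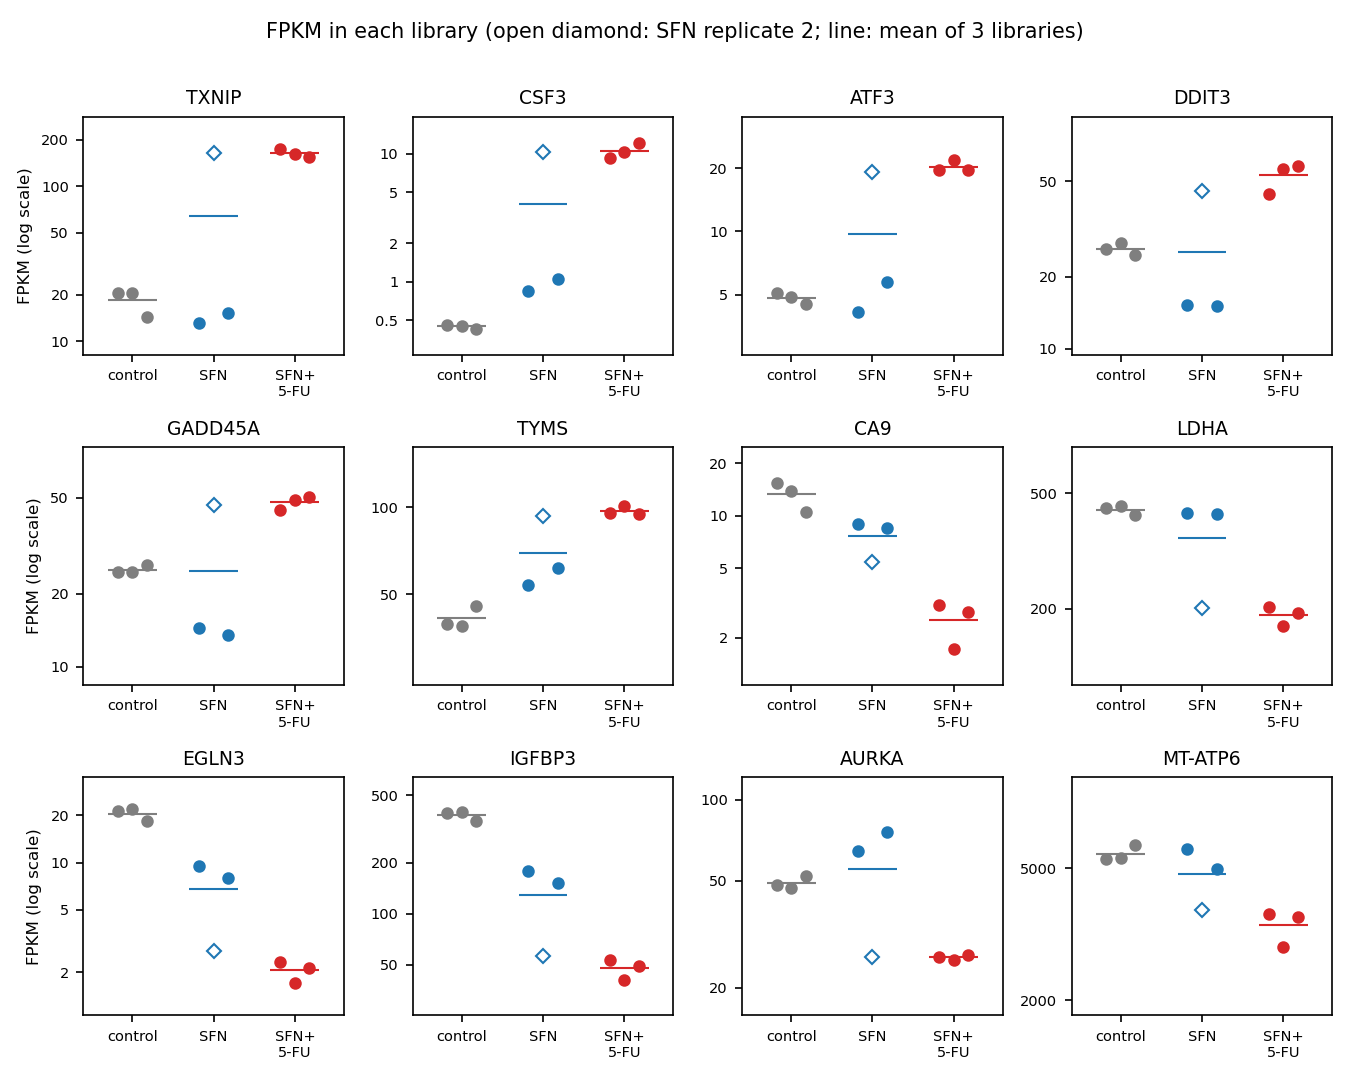
FPKM (vertical axes, log scale) of 12 genes in each library of the control, SFN and SFN+5-FU groups (horizontal axes). Points are libraries, the open diamond is SFN replicate 2 and lines are the means of 3 libraries. For TXNIP, CSF3, DDIT3, GADD45A, LDHA and AURKA the diamond lies within or next to the SFN+5-FU points, and for CA9 it lies between the groups.

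Gene lists of known pathways are described by how many tested members rose or fell and by their median log2 change. The background for these counts is 29.8% of all tested genes higher and 21.4% lower, with a median change over all genes of 0.05 without SFN replicate 2 and 0.03 with all 9 libraries. No list had a called member with all 9 libraries. Lists share their libraries and some members, and no test of a list was made. Besides the 2 most abundant members of each list and a fixed set of genes, members named below were chosen after their values were seen, for large or for opposite changes.

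**Figure D3:**
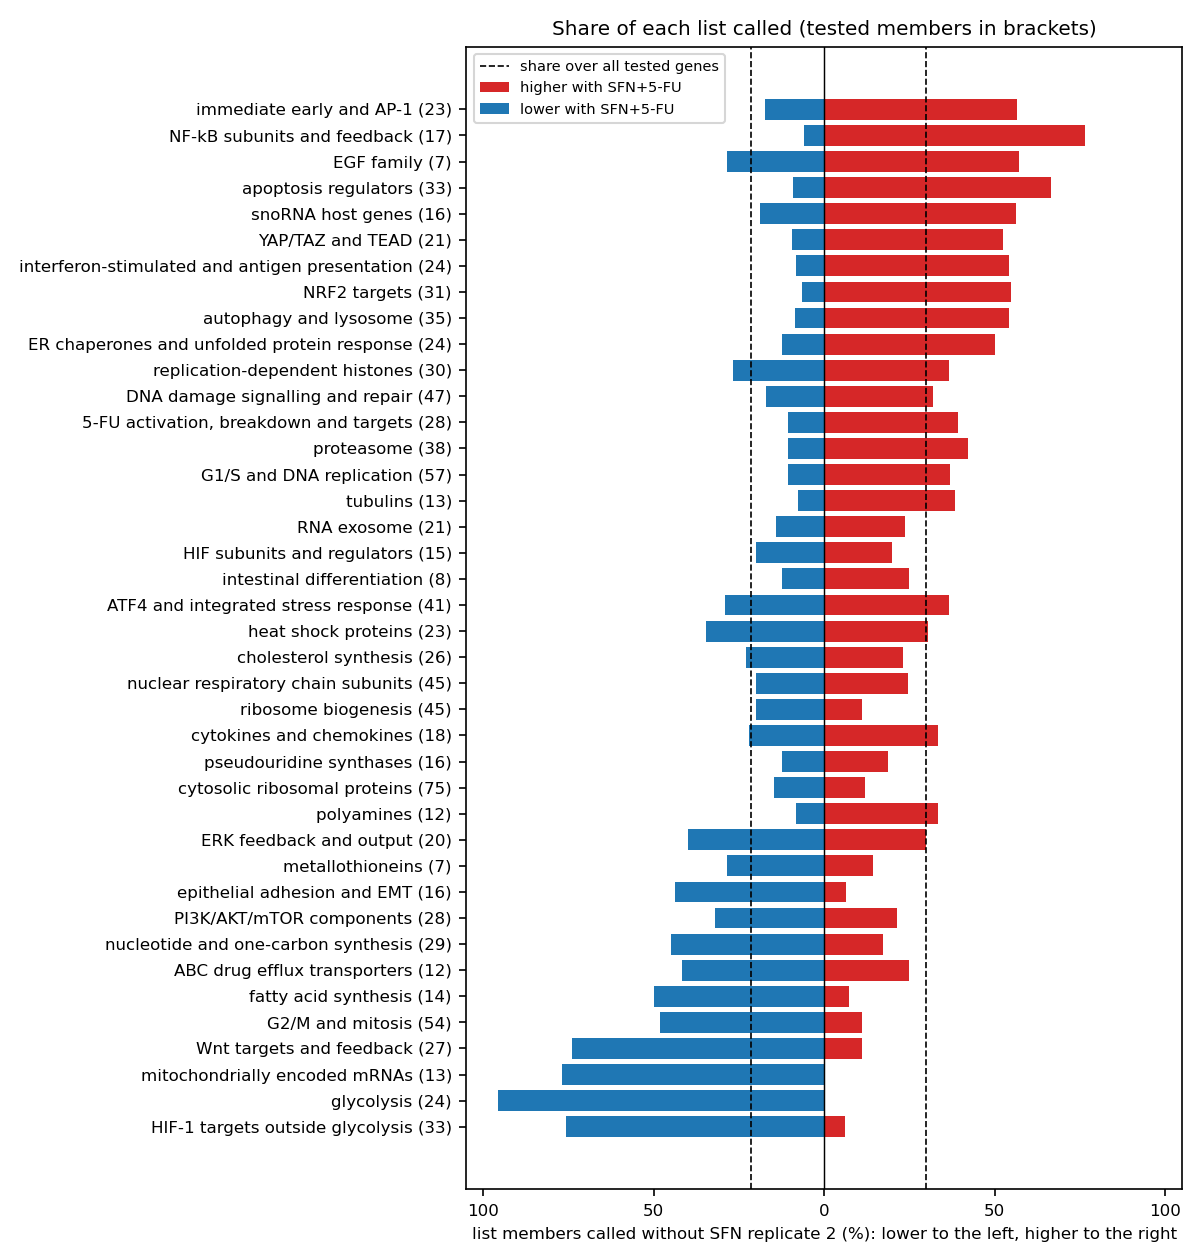
Percentage of tested list members (number in brackets) called without SFN replicate 2, with higher members to the right in red and lower members to the left in blue. Dashed lines mark the shares over all 12662 genes, 29.8% higher and 21.4% lower. Colon epithelial, leukocyte, fibroblast and endothelial markers are not shown. Among the lists shown, glycolysis, HIF-1 targets, mitochondrially encoded mRNAs and Wnt genes extend farthest to the left, and NF-kB genes farthest to the right.

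Enzymes that activate 5-FU, break it down or are hit by it were described first, since they bear on the drug itself. Of 33 listed genes, 28 were tested, of which 11 rose and 3 fell. Their median log2 change was 0.14 without SFN replicate 2 and 0.09 with all 9 libraries. Among the activating enzymes, UPP1, uridine phosphorylase 1, had 15.3, 43.1 and 23.3 FPKM in the SFN libraries and 39.5, 49.1 and 54.5 FPKM in the SFN+5-FU libraries and rose by 1.28 (SE 0.182, adjusted p = 0.000533). UCK1, a uridine kinase, had 14.8, 27 and 15.9 FPKM in the SFN libraries and 26.6, 27.5 and 28.8 FPKM in the SFN+5-FU libraries. The lowest SFN+5-FU value was below SFN replicate 2 for both genes, and above SFN replicates 1 and 3. The related kinase UCK2 moved the other way, with a change of -0.25 (adjusted p = 0.00678) without SFN replicate 2 and -0.16 (adjusted p = 0.209) with all 9 libraries. UMPS, which can convert 5-FU directly to its nucleotide, did not pass, at 12.2, 13.2 and 12.7 and 13.6, 13.3 and 12.7 FPKM and a difference of 0.08. TK1, thymidine kinase 1, rose by 0.47 (SE 0.0705, adjusted p = 0.000729), and its SFN+5-FU values did not overlap the SFN values. The breakdown enzyme DPYD and the phosphorylase TYMP had means under 1 FPKM and were not tested.

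The gene of the enzyme that the drug's deoxynucleotide blocks, TYMS, rose, as did the genes of ribonucleotide reductase, which makes deoxynucleotides. TYMS had 54, 93.2 and 61.8 FPKM in the SFN libraries and 95.6, 101 and 95.2 FPKM in the SFN+5-FU libraries, against 41.3 ± 3.77 FPKM in controls (SD, n = 3). Every SFN+5-FU value exceeded every SFN value, and the lowest exceeded SFN replicate 2 by little. The log2 change was 0.74 (adjusted p = 0.000148) without SFN replicate 2 and 0.52 (adjusted p = 0.134) with all 9 libraries. The ribonucleotide reductase genes RRM2 and RRM1 had changes of 0.82 and 0.63, and RRM2B rose by 0.36. RRM2 values were 50.6, 91.8 and 60.9 FPKM with SFN and 94.5, 103 and 99.2 FPKM with SFN+5-FU. Genes of enzymes that clear uracil from DNA, or dUTP before it enters DNA, went in different directions. UNG, uracil-DNA glycosylase, had 13.4, 16.8 and 11.5 FPKM in the SFN libraries and 19.5, 18.2 and 18 FPKM in the SFN+5-FU libraries and rose by 0.54. The glycosylase MBD4 rose by 0.47. DUT, which removes dUTP, fell, with -0.26 (adjusted p = 0.0157) without SFN replicate 2 and -0.19 (adjusted p = 0.173) with all 9 libraries. The export pump ABCC5 rose by 0.31.

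The nuclear RNA exosome degrades and trims RNA and is known to be disturbed by 5-FU. Of 21 tested genes, 5 rose and 3 fell, shares below the background in both directions. EXOSC10, its nuclear nuclease, had 13.3, 16.9 and 14.5 FPKM in the SFN libraries and 17, 17.6 and 16.1 FPKM in the SFN+5-FU libraries, with a change of 0.26 (adjusted p = 0.011) without SFN replicate 2 and 0.18 (adjusted p = 0.197) with all 9 libraries. The cofactors ZCCHC8 and RBM7 rose by 0.50 and 0.47. EXOSC7 and the helicase MTREX fell, with changes of -0.34 and -0.32. The most abundant member, EXOSC4, was just under the threshold, at 0.13 (adjusted p = 0.048). It lost its call whichever further library was left out, and also under 7 other alternatives. Among these, its change was 0.07 (adjusted p = 0.315) after median-of-ratios scaling and 0.04 (adjusted p = 0.552) after quantile normalization. Pseudouridine synthases act on uridines in RNA. In that list 3 of 16 rose and 2 fell, among them PUS3 at 0.66 and RPUSD1 at 0.52. DKC1, the catalytic subunit of box H/ACA particles, did not pass, at 31.7, 30.1 and 36.8 and 32.4, 30.8 and 28.5 FPKM, and neither did its partner NHP2, at 0.17 (adjusted p = 0.178).

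Genes that act in cell cycle arrest, apoptosis and repair are given here singly and not as a list, so that no share is to be read from those named. GADD45A, a growth arrest gene, had 14.5, 46.5 and 13.5 FPKM in the SFN libraries and 44.6, 48.6 and 50.5 FPKM in the SFN+5-FU libraries, against 25.2 ± 1.03 FPKM in controls (SD, n = 3). SFN replicates 1 and 3 were below the controls and the other 4 libraries above them. Its log2 change was 1.70 (adjusted p = 5.3e-06) without SFN replicate 2 and 1.15 (adjusted p = 0.134) with all 9 libraries. CDKN1A, the p21 inhibitor of cyclin-dependent kinases, had 46.5, 60.9 and 42.6 FPKM in the SFN libraries and 58.3, 63.2 and 73.5 FPKM in the SFN+5-FU libraries, a change of 0.53 (SE 0.0869, adjusted p = 0.00114), and SFN replicate 2 overlapped the SFN+5-FU range. The apoptosis gene BBC3 rose by 0.90, and ZMAT3 by 0.62. BAX, a pore-forming apoptosis effector, fell by 0.41 (SE 0.0726, adjusted p = 0.00168). The repair gene XPC also fell, with a change of -0.34. The ubiquitin ligase gene MDM2 and the secreted factor GDF15 did not pass, with differences of 0.09 and 0.23 and adjusted p of 0.458 and 0.18.

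Cell cycle genes were split by phase. In the list of G1/S and DNA replication genes 21 of 57 rose and 6 fell, with a median of 0.11. The other scalings and the GC and length correction gave 20 higher and 11 or 12 lower. In the list of G2/M and mitosis genes 6 of 54 rose and 26 fell, with a median of -0.23 without SFN replicate 2 and -0.18 with all 9 libraries. CCNE2, the S-phase cyclin E2, had 1.5, 5.81 and 2.13 FPKM in the SFN libraries and 5.48, 5.88 and 5.55 FPKM in the SFN+5-FU libraries and rose by 1.25 (SE 0.13, adjusted p = 0.000114). CLSPN, a replication checkpoint adaptor, had 2.66, 8.45 and 3.21 FPKM in the SFN libraries and 8.35, 9.88 and 7.45 FPKM in the SFN+5-FU libraries. The origin licensing genes CDT1 and ORC6 rose by 1.03 and 1.00, and the sliding clamp gene PCNA by 0.51. CCND1, cyclin D1, fell instead, from 301, 171 and 293 FPKM with SFN to 176, 167 and 155 FPKM with SFN+5-FU, a change of -0.83 (SE 0.0568, adjusted p = 2.11e-05). The mitotic kinase gene AURKA had 64.4, 25.9 and 75.9 FPKM in the SFN libraries and 26, 25.3 and 26.4 FPKM in the SFN+5-FU libraries, a change of -1.40 (adjusted p = 1.17e-05) without SFN replicate 2 and -0.93 (adjusted p = 0.134) with all 9 libraries. SFN replicates 1 and 3 lay above the control mean of 49.1 ± 2.58 FPKM (SD, n = 3), and the other 4 libraries below it. PLK1, another mitotic kinase, fell by 1.33 (SE 0.0621, adjusted p = 1e-05). CCNB1, KIF20A and HMMR, which act in mitotic entry and on the spindle, changed by -1.06, -1.06 and -1.24. The abundant members UBE2C and CKS2 changed by -0.75 and -0.40. MKI67 did not pass, at -0.24 (adjusted p = 0.0587) without SFN replicate 2 and -0.18 (adjusted p = 0.21) with all 9 libraries. The transcription factors FOXM1 and MYBL2, which drive mitotic genes, rose by 0.60 and 0.47, against the direction of most of the list members that passed.

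DNA damage and repair genes were near the background, with 15 of 47 higher and 8 lower. The recombination gene RAD51AP1 rose by 0.87 and the flap nuclease FEN1 by 0.40, and the base excision nuclease APEX1 did not pass, at -0.09. Replication-dependent histone genes moved both ways, 11 of 30 up and 8 down, with 60 listed. H4C15 had 6.49, 16.4 and 6.88 FPKM in the SFN libraries and 17.7, 21.2 and 18.1 FPKM in the SFN+5-FU libraries, and H4C14, a near-identical copy, had 6.47, 16.2 and 6.3 FPKM in the SFN libraries and 16.8, 18.3 and 15.9 FPKM in the SFN+5-FU libraries. The linker histone gene H1-2 had 199, 87.8 and 240.0 FPKM in the SFN libraries and 78.6, 85.3 and 89.9 FPKM in the SFN+5-FU libraries and fell by 1.36 (SE 0.102, adjusted p = 2.86e-05). The abundant member H2BC12 did not pass, at 0.07. Histone genes share sequence, so reads may be assigned to the wrong copy, and poly(A) selection captures only a part of their mRNA.

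Hypoxia response genes fell in SFN+5-FU relative to SFN replicates 1 and 3. In glycolysis, 23 of 24 tested members fell and 0 rose, with a median log2 change of -0.55 without SFN replicate 2 and -0.39 with all 9 libraries. Of HIF-1 targets outside glycolysis, 25 of 33 tested fell and 2 rose, with medians of -0.50 and -0.37. HIF-1 binds the core ACGTG on either strand. In RefSeq promoter windows of GRCh38.p14, which run from 250 bases before to 50 bases after the start, ACGTG was present for 24.9% of 27305 genes. It was present for 15 of the 22 tested glycolysis genes with a window (68.2%) and for 17 of the 27 tested HIF-1 targets with a window (63%). Shares over all genes include untested genes, and no share over the tested genes alone was computed. The E-box CACGTG was present for 8.77% of genes and for 17 of the 37 tested ribosome biogenesis genes with a window (45.9%). In that list 5 of 45 tested members rose and 9 fell. The letters ACGTG lie within the E-box. The stretches that hold these letters before the start of 4 genes that fell are shown from 5′ to 3′ on the plus strand, with each match and any E-box around it in capitals:
CA9, chr9:35673890-35673927: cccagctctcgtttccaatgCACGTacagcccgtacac
LDHA, chr11:18394358-18394514: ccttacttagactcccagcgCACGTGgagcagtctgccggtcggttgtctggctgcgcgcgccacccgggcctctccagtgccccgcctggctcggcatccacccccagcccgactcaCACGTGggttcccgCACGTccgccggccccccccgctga
ANKRD37, chr4:185396659-185396722: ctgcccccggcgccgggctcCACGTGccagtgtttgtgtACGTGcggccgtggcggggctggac
DDIT4, chr10:72273779-72273823: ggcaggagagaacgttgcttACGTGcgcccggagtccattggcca
A match is a description of the sequence and not evidence of binding.

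Carbonic anhydrase 9, CA9, whose stretch ends at the start site, acidifies the surroundings of hypoxic cells. It had 8.94, 5.42 and 8.52 FPKM in the SFN libraries and 3.09, 1.72 and 2.8 FPKM in the SFN+5-FU libraries, against 13.2 ± 2.55 FPKM in controls (SD, n = 3). SFN+5-FU values lay below all SFN values, and SFN replicate 2 stood between the others. Its log2 change was -1.48 (adjusted p = 0.000293) without SFN replicate 2 and -1.28 (adjusted p = 0.134) with all 9 libraries. LDHA, lactate dehydrogenase A, with 3 marked sites in the printed stretch, had 429, 200.5 and 423 FPKM in the SFN libraries and 202, 174 and 192 FPKM in the SFN+5-FU libraries. SFN replicates 1 and 3 were near the control mean of 438 ± 15.4 FPKM (SD, n = 3), and SFN replicate 2 lay inside the SFN+5-FU range. Its change was -1.17 (adjusted p = 1.2e-05) without SFN replicate 2 and -0.80 (adjusted p = 0.134) with all 9 libraries. PGK1, phosphoglycerate kinase, had 224, 109 and 223 FPKM in the SFN libraries and 109, 97.6 and 113 FPKM in the SFN+5-FU libraries. SLC2A1, the glucose transporter GLUT1, had 283, 164 and 253 FPKM in the SFN libraries and 147, 144 and 152 FPKM in the SFN+5-FU libraries with no overlap, and fell by 0.85 (SE 0.0681, adjusted p = 3.58e-05). The lactate transporter SLC16A1, the regulator of glycolytic flux PFKFB4 and the pyruvate dehydrogenase kinase PDK1 changed by -0.98, -0.91 and -0.87. ENO1, enolase, fell by 0.36 (SE 0.0464, adjusted p = 0.000303). GAPDH was the one tested member of the glycolysis list that did not pass, at 2128, 2074 and 2079 and 2013, 2068 and 2174 FPKM, a difference of -0.01 (adjusted p = 0.846).

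Outside glycolysis, DDIT4, an inhibitor of mTOR complex 1, had 44, 17.2 and 31.4 FPKM in the SFN libraries and 11.3, 12.7 and 14.9 FPKM in the SFN+5-FU libraries. Its control mean was 133 ± 18.9 FPKM (SD, n = 3), the highest of the 3 groups. The log2 change was -1.46 (adjusted p = 0.000166) without SFN replicate 2 and -1.10 (adjusted p = 0.134) with all 9 libraries. ANKRD37 and NDRG1, common hypoxia markers, fell by 1.28 (SE 0.156, adjusted p = 0.000245) and by 1.43 (SE 0.131, adjusted p = 6.26e-05). For both, SFN+5-FU values lay below all SFN values. The abundant repressor gene BHLHE40 had 63.1, 41.9 and 59.1 FPKM in the SFN libraries and 40.6, 40.4 and 41.2 FPKM in the SFN+5-FU libraries. EGLN3, a prolyl hydroxylase that marks HIF for degradation and is itself a HIF target, had 9.55, 2.71 and 7.99 FPKM in the SFN libraries and 2.32, 1.7 and 2.13 FPKM in the SFN+5-FU libraries, a change of -1.68 (SE 0.111, adjusted p = 1.84e-05). Its relative EGLN1 changed by -0.50. Against the direction of the list, the vasodilator gene ADM rose by 0.46 (SE 0.113, adjusted p = 0.00907) and JMJD6 by 0.41 (SE 0.0599, adjusted p = 0.000584). VEGFA, the endothelial growth factor, had 2.3, 2.28 and 2.19 FPKM in the SFN libraries and 1.88, 1.87 and 1.95 FPKM in the SFN+5-FU libraries, with no overlap between the groups and a difference of -0.16 (adjusted p = 0.0517) without SFN replicate 2 and -0.17 (adjusted p = 0.135) with all 9 libraries. The mRNA of HIF1A itself did not pass, at 18.3, 19.1 and 21.2 FPKM and 20.1, 22.2 and 18.2 FPKM, a difference of 0.03 (adjusted p = 0.83) without SFN replicate 2 and 0.04 (adjusted p = 0.757) with all 9 libraries. EPAS1, which encodes HIF-2α, had 56.6, 21.2 and 45.4 FPKM in the SFN libraries and 22.6, 20.2 and 20.2 FPKM in the SFN+5-FU libraries and fell by 1.24 (SE 0.0914, adjusted p = 2.73e-05). Among HIF subunits and their regulators 3 of 15 tested rose and 3 fell.

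**Figure D4:**
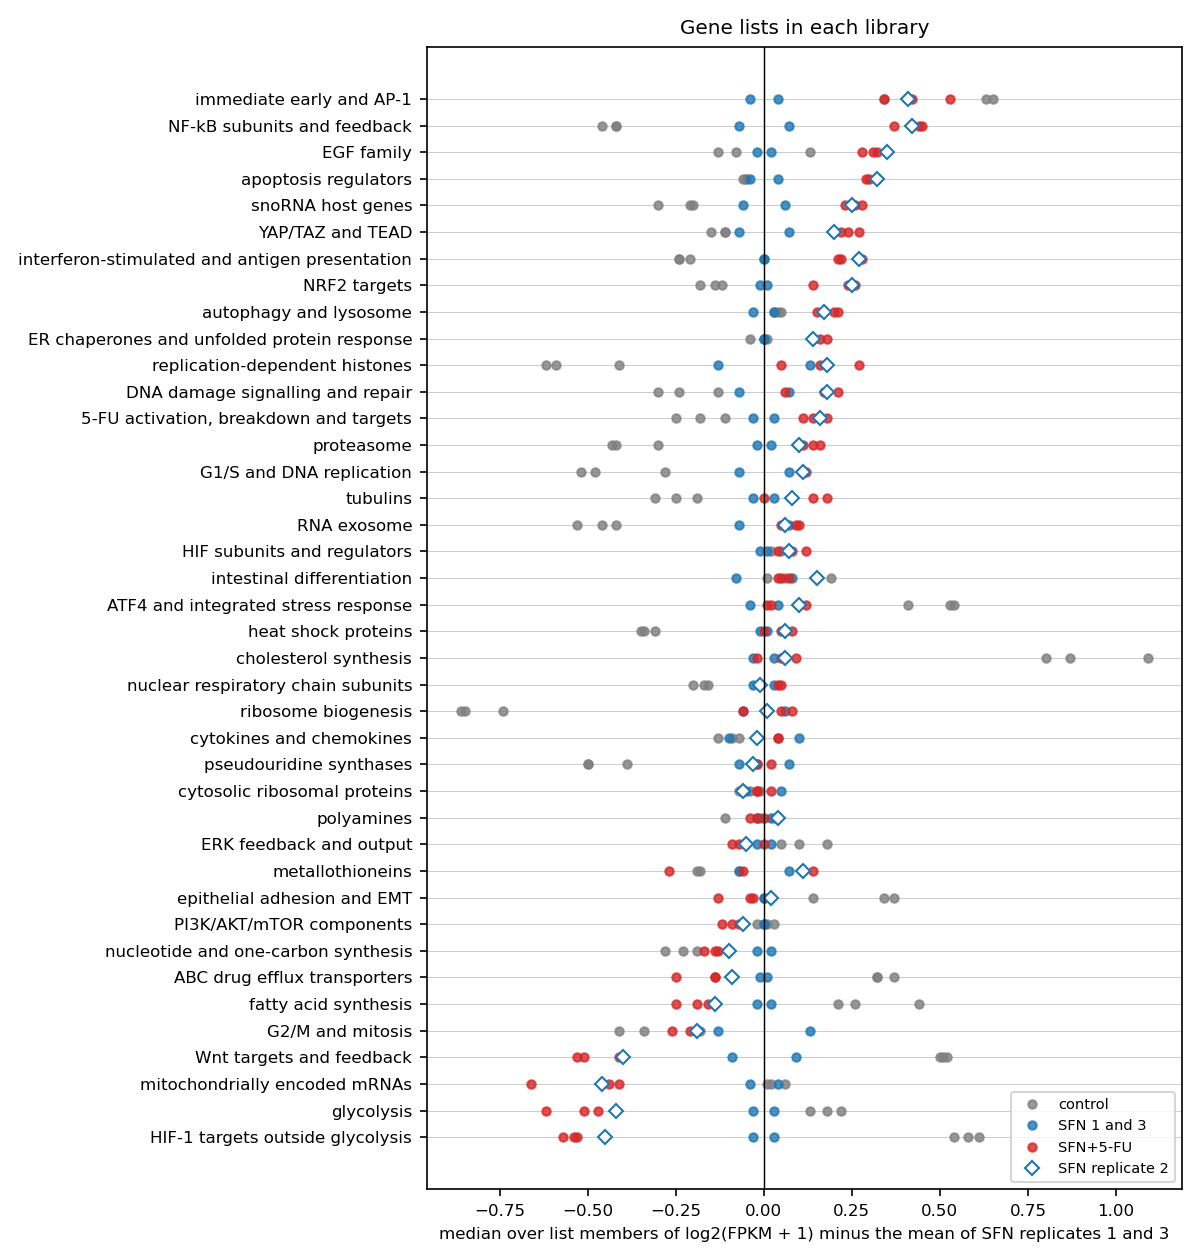
For each gene list shown (vertical axis), the median over its tested members of log2(FPKM + 1) minus the mean of SFN replicates 1 and 3 (horizontal axis), given for every library. Colon epithelial, leukocyte, fibroblast and endothelial markers are not shown. Grey points are controls, blue points SFN replicates 1 and 3, open diamonds SFN replicate 2 and red points SFN+5-FU. The diamond lies near the red points for most lists. The red points of the HIF-1, glycolysis, mitochondrial and Wnt lists lie farther to the left than those of the other lists shown.

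Transcripts of the mitochondrial genome were lower without SFN replicate 2. All 13 protein-coding genes were tested, of which 10 fell and 0 rose, with a median of -0.51 without SFN replicate 2 and -0.35 with all 9 libraries. After quantile normalization, which equalizes the highest values of all libraries, 6 fell with a median of -0.11, and MT-CO2 and MT-ND4 no longer passed. MT-ATP6, a subunit of ATP synthase, had 5696, 3751 and 4983 FPKM in the SFN libraries and 3633, 2892 and 3575 FPKM in the SFN+5-FU libraries. SFN+5-FU values were below all SFN values, with SFN replicate 2 between the others. Its change was -0.67 (adjusted p = 0.000983) without SFN replicate 2 and -0.50 (adjusted p = 0.134) with all 9 libraries. MT-CYB of complex III and MT-ND4 of complex I changed by -0.66 and -0.65, and MT-CO2 of complex IV by -0.32. The most abundant transcript, MT-CO1, did not pass, at 8472, 7837 and 7873 and 7534, 6316 and 7514 FPKM and a difference of -0.20 (adjusted p = 0.072) without SFN replicate 2 and -0.18 (adjusted p = 0.157) with all 9 libraries. MT-ND1 and MT-ND6 did not pass either, at -0.06 and -0.15. Nuclear genes of the respiratory chain were nearer the background, with 11 of 45 higher and 9 lower, and of their abundant members COX6A1 rose by 0.41 and ATP5F1B did not pass, at -0.17. Whether the 2 sets of respiratory genes differ was not tested. Transcripts of the mitochondrial genome are also a common measure of library quality, and the part of that in this result was not tested.

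Stress genes controlled by ATF4, the factor of the integrated stress response, were split by role. In the whole list 15 of 41 rose and 12 fell. The letters TGATGNAA of the ATF4 element were in the promoter window of 15 of the 37 tested members with a window (40.5%). They were in that of 4.46% of all genes. The transcription factors rose in 5 of 6 cases. ATF4 had 72, 155 and 87 FPKM in the SFN libraries and 154, 164 and 174 FPKM in the SFN+5-FU libraries, a change of 1.04 (SE 0.0794, adjusted p = 3.16e-05). ATF3 had 4.15, 19.1 and 5.77 FPKM in the SFN libraries and 19.6, 21.9 and 19.5 FPKM in the SFN+5-FU libraries, with no overlap and a change of 1.85 (adjusted p = 1.35e-05) without SFN replicate 2 and 1.26 (adjusted p = 0.134) with all 9 libraries. DDIT3, the proapoptotic factor CHOP, had 15.2, 45.6 and 15.1 FPKM in the SFN libraries and 44.4, 56.5 and 58 FPKM in the SFN+5-FU libraries, against 26.1 ± 1.41 FPKM in controls (SD, n = 3), and rose by 1.73 (SE 0.105, adjusted p = 1.37e-05). PPP1R15A, which restores translation, rose by 1.23. Amino acid genes moved both ways. SLC3A2, the heavy chain shared by several amino acid transporters, had 79.3, 177 and 83.9 FPKM in the SFN libraries and 179, 190.0 and 188 FPKM in the SFN+5-FU libraries. Its partner SLC7A5, the light chain LAT1, had 136, 62.1 and 118 FPKM in the SFN libraries and 54.4, 58.6 and 60.3 FPKM in the SFN+5-FU libraries and fell by 1.12 (SE 0.0721, adjusted p = 1.78e-05), so that the 2 chains of one transporter changed in opposite directions. ASNS, asparagine synthetase, rose by 0.76, and PSAT1 of serine synthesis and the glutamine transporter SLC1A5 changed by -0.58 and -0.52. Chaperones and effectors of the unfolded protein response had 12 of 24 members higher and 3 lower, among the higher ones DNAJB9 at 1.34, while HSPA5 did not pass at 0.11 (adjusted p = 0.141). The abundant PDIA6 fell, at -0.15, and CALR did not pass, at -0.08. Of 23 heat shock proteins 7 rose and 8 fell. HSPA8, the constitutive HSP70, had 573, 307 and 577 FPKM in the SFN libraries and 321, 298 and 286 FPKM in the SFN+5-FU libraries, near the control mean of 326 ± 12.9 FPKM (SD, n = 3) in SFN replicate 2 and all SFN+5-FU libraries. Of the HSP90 genes, HSP90AB1 fell, at -0.22, and HSP90AA1 did not pass, at 0.21.

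NF-kB and interferon genes were more often higher than lower without SFN replicate 2. Of 17 NF-kB subunits and feedback genes, 13 rose and 1 fell, with a median of 0.45 without SFN replicate 2 and 0.31 with all 9 libraries. TRAF1, a signalling adaptor, had 5.94, 19.8 and 7.71 FPKM in the SFN libraries and 19.1, 19 and 22 FPKM in the SFN+5-FU libraries, a change of 1.43 (SE 0.106, adjusted p = 2.73e-05). The subunit gene NFKB2 and the inhibitor NFKBIA rose by 0.52 and 0.45, and TNFAIP2 and BIRC3 by 0.66 and 0.64. TNIP1, another inhibitor, fell, with a change of -0.28, and ICAM1 did not pass at 0.20 (adjusted p = 0.111). Of 18 cytokines and chemokines 6 rose and 4 fell, near the background, with a median of -0.09 without SFN replicate 2 and 0.01 with all 9 libraries. The colony-stimulating factor genes rose, with CSF1 at 1.38 and CSF2 at 1.02. CSF2 had 29.7, 76.6 and 47.2 FPKM in the SFN libraries and 66.9, 77.2 and 87.5 FPKM in the SFN+5-FU libraries. CXCL1, a neutrophil chemokine, fell, at -1.04 (adjusted p = 0.000361) without SFN replicate 2 and -0.66 (adjusted p = 0.151) with all 9 libraries, and CXCL8 did not pass at -0.05 (adjusted p = 0.816). CCL20 rose by 0.93. Interferon-stimulated and antigen presentation genes had 13 of 24 members higher and 2 lower. IRF7, a regulator of interferon genes, had 9.45, 27.8 and 12 FPKM in the SFN libraries and 26, 28.4 and 29.2 FPKM in the SFN+5-FU libraries. HLA-C and B2M rose by 0.38 and 0.27, the second to 0.11 and without passing (adjusted p = 0.0662) after the GC and length correction. The ubiquitin-like gene UBD changed by -0.67. Markers of leukocytes are given beside these genes. Of 10 listed, 3 were tested and CD68 rose by 1.07, while LYZ did not pass, at -0.24. Their summed level was 5.7 to 10.8 FPKM with SFN and 7.96 to 11.4 FPKM with SFN+5-FU. The defining leukocyte gene PTPRC was at 0 in all 9 libraries.

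Immediate early and growth factor genes were split. Of 23 immediate early genes 13 rose and 4 fell. The AP-1 letters TGANTCA were in the promoter window of 1 of the 17 tested members with a window (5.88%). They were in that of 9.37% of all genes. JUN had 39.9, 73 and 39 FPKM in the SFN libraries and 69.4, 74.4 and 72.6 FPKM in the SFN+5-FU libraries and FOS had 131, 87.7 and 130.0 FPKM in the SFN libraries and 81.9, 74.7 and 79 FPKM in the SFN+5-FU libraries. The 2 partners of the AP-1 factor thus changed by 0.85 and -0.73, in opposite directions. MAFF rose by 1.10 and IER3 by 0.57, and EGR1 did not pass at 0.03 (adjusted p = 0.795). Of the EGF family HBEGF had 2.27, 7.46 and 2.18 FPKM in the SFN libraries and 6.98, 8.39 and 9.06 FPKM in the SFN+5-FU libraries, the receptor gene EGFR rose by 0.28 and the ligand TGFA fell, with a change of -0.40. ERK feedback and output genes had 6 of 20 members higher and 8 lower. Among YAP/TAZ and TEAD genes 11 of 21 rose and 2 fell, with CCN2 at 1.04 and AMOTL2 at 0.69, and ANKRD1 did not pass at 0.08.

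Apoptosis regulators rose in 22 of 33 cases and fell in 3. The list pools genes that promote and genes that oppose cell death, so the count gives no direction for apoptosis. Of 8 tested antiapoptotic members 4 rose and 1 fell, and of 9 caspases 7 rose and 0 fell. BAK1, a pore-forming partner of BAX, rose by 0.61 (SE 0.074, adjusted p = 0.000232), while BAX fell. The abundant members BCL2L1 and CYCS did not pass, at -0.07 and 0.09. Of 38 listed NRF2 targets, the known response to sulforaphane, 31 were tested, of which 17 rose and 2 fell. The medians were 0.21 and 0.18 without and with SFN replicate 2. AKR1C1, AKR1C2 and SLC7A11 were under the filter, with means of 0.168, 0.228 and 0.629 FPKM over the 9 libraries. NQO1, a quinone reductase, had 104, 124 and 108 FPKM in the SFN libraries and 127, 128 and 143 FPKM in the SFN+5-FU libraries, with no overlap and a change of 0.31 (adjusted p = 0.00351) without SFN replicate 2 and 0.24 (adjusted p = 0.134) with all 9 libraries. HMOX1, heme oxygenase 1, rose by 0.55 and TXNRD1, thioredoxin reductase 1, by 0.52. GCLM of glutathione synthesis had 6.78, 15 and 8.54 FPKM in the SFN libraries and 14.8, 16.1 and 15.1 FPKM in the SFN+5-FU libraries. The ferritin genes FTH1 and FTL rose by 0.61 and 0.51, and OSGIN1 by 1.17. NFE2L2, which encodes NRF2, rose by 0.73. ABCC1, a glutathione conjugate exporter, had 11.8, 4.99 and 11.3 FPKM in the SFN libraries and 5.19, 4.72 and 4.51 FPKM in the SFN+5-FU libraries and fell by 1.12 (SE 0.0673, adjusted p = 1.35e-05), and TKT of the pentose phosphate pathway changed by -0.30. Autophagy and lysosome genes rose in 19 of 35 cases and fell in 3. The autophagosome genes GABARAPL1 and MAP1LC3B rose by 0.95 and 0.63, and the receptor gene SQSTM1 by 0.54. CTSL and CTSD, lysosomal proteases, rose by 1.01 and 0.28. Proteasome genes rose in 16 of 38 cases and fell in 4, with PSMC3 at 0.53 and the abundant PSMA7 and PSMB3 at 0.17 and 0.25.

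Components of the PI3K/AKT/mTOR pathway, which the series title names, moved both ways, and 13 of the 28 tested did not pass. Of 28 tested members 6 rose and 9 fell, with a median of -0.09. Over all tested genes 29.8% rose and 21.4% fell, with a median of 0.05. With all 9 libraries, 3 members were higher and 7 lower at an unadjusted p of 0.05 in limma, with a median of -0.06. AKT1, a central kinase of the pathway, did not pass, at 19.5, 18.9 and 18.1 and 18.2, 17.8 and 19.2 FPKM, a difference of -0.03 (adjusted p = 0.693) without SFN replicate 2 and -0.03 (adjusted p = 0.71) with all 9 libraries. MTOR fell, at -0.26 (adjusted p = 0.00583) without SFN replicate 2 and -0.15 (adjusted p = 0.265) with all 9 libraries. RPTOR, the scaffold of mTOR complex 1, had 4.84, 2.06 and 4.87 FPKM in the SFN libraries and 1.86, 2.03 and 2.18 FPKM in the SFN+5-FU libraries. The kinase subunit PIK3CB changed by -0.66 and PIK3CA by 0.39, in opposite directions. SGK1, an AKT-like kinase, had 3.19, 1.23 and 4.21 FPKM in the SFN libraries and 1.25, 1.42 and 1.33 FPKM in the SFN+5-FU libraries. The translation gene EIF4B fell, at -0.20, and RPS6 did not pass, at -0.10.

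Genes of growth and synthesis were mixed. Ribosome biogenesis genes rose in 5 of 45 cases and fell in 9, and cytosolic ribosomal proteins rose in 9 of 75 and fell in 11. For the ribosomal proteins these counts were 4 and 16 after median-of-ratios scaling and 5 and 19 after the GC and length correction. RPL3 had 228, 120.2 and 207 FPKM in the SFN libraries and 108, 114 and 120.1 FPKM in the SFN+5-FU libraries and fell by 0.92 (SE 0.0642, adjusted p = 2.31e-05), while RPS2 rose by 0.35 and RPL7A changed by -0.20. The nucleolar genes NPM1 and FBL changed by -0.41 and -0.33. Host genes of small nucleolar RNAs rose in 9 of 16 cases and fell in 3, with SNHG1 at 28.8, 74.3 and 33.9 and 75.1, 76 and 72.3 FPKM and SNHG7 and SNHG32 at 1.04 and 0.90. Nucleotide and one-carbon synthesis genes fell in 13 of 29 cases and rose in 5, with the purine enzyme ATIC at -0.58. ODC1 of polyamine synthesis had 148, 239 and 172 FPKM in the SFN libraries and 256, 268 and 258 FPKM in the SFN+5-FU libraries, with no overlap, and the antizyme gene OAZ1 did not pass, at -0.01. Cholesterol synthesis genes were split, 6 up and 6 down of 26. SREBF2, their master regulator, changed by -0.85, and the enzyme genes IDI1 and EBP by 0.78 and 0.22. ACLY and SCD of fatty acid synthesis fell, with changes of -0.50 and -0.42, in a list with 7 of 14 lower and 1 higher. Among ABC transporters ABCB1, a multidrug pump, rose by 0.72 and ABCA2 changed by -1.05, while ABCC3 did not pass. The metallothionein genes MT1E and MT1X changed by -0.95 and -1.05, and MT2A did not pass, at 0.24. TUBA1B rose by 0.39 and TUBB4B did not pass.

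Wnt targets and feedback genes were lower without SFN replicate 2. Of 27 tested members 20 fell and 3 rose, with a median of -0.54 without SFN replicate 2 and -0.33 with all 9 libraries. AXIN2, a feedback inhibitor, had 101, 64.3 and 96.2 FPKM in the SFN libraries and 64, 62.1 and 59.2 FPKM in the SFN+5-FU libraries, with no overlap and a change of -0.66 (adjusted p = 7.72e-05) without SFN replicate 2 and -0.46 (adjusted p = 0.134) with all 9 libraries. APCDD1 and NKD1, also feedback inhibitors, fell by 1.20 (SE 0.104, adjusted p = 5.2e-05) and by 0.93 (SE 0.0933, adjusted p = 9.69e-05). SOX4 changed by -1.19. The secreted antagonist DKK1 rose by 0.58 (SE 0.13, adjusted p = 0.00569), and TCF7 and EPHB3 rose by 0.30 and 0.39. MYC, another target, did not pass, at 92.4, 91.8 and 97.1 and 96.3, 92.8 and 88.5 FPKM and a difference of -0.03. The TCF/LEF letters ATCAAAG were in the promoter window of 1 of the 16 tested Wnt genes with a window (6.25%) and of 3.18% of all genes.

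Of 9 listed colon epithelial markers 7 were tested, of which 5 fell and 0 rose. The other listed markers, CDX1 and CDH17, were under the filter, with means of 0.224 and 0.34 FPKM over the 9 libraries. The summed level of the list was 2540 to 2580 FPKM in controls. It was 1760 to 2380 FPKM with SFN and 1700 to 1720 FPKM with SFN+5-FU. The keratin gene KRT8 had 772, 533 and 662 FPKM in the SFN libraries and 521, 526 and 531 FPKM in the SFN+5-FU libraries, and its partner KRT18 fell, with a change of -0.41. EPCAM changed by -0.18 (adjusted p = 0.0293) without SFN replicate 2 and -0.12 (adjusted p = 0.254) with all 9 libraries, and the villin gene VIL1 by -0.73. CDX2 did not pass, at -0.18. Of 8 intestinal differentiation genes 2 rose and 1 fell, with KLF5 at 0.20, while HES1 did not pass, at 0.27. In the adhesion and EMT list, with 24 listed, 7 of 16 tested fell and 1 rose. Of 11 epithelial members 5 fell and 1 rose, and of 5 mesenchymal members 2 fell and 0 rose. CLDN1, a tight junction protein, had 10.3, 3.96 and 12.5 FPKM in the SFN libraries and 3.94, 3.26 and 4.05 FPKM in the SFN+5-FU libraries. VIM did not pass, at 0.06. The mesenchymal regulators ZEB1 and SNAI2 were under the filter, with means of 0.661 and 0.856 FPKM over the 9 libraries. Of fibroblast markers 2 were tested and ACTA2 rose by 0.95, while COL1A1 did not pass, at 0.08. The sum over the list was 1.74 to 3.8 FPKM with SFN and 3.46 to 3.74 FPKM with SFN+5-FU. No endothelial marker was tested, and CDH5 was at 0 in all 9 libraries.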

How the data were processed

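The FPKM values per gene were used as deposited by the authors, with 1 column for each of 9 libraries. Per the submitters' processing notes, fastp, StringTie and edgeR were used, with no versions or roles. The aligner is not given in the sources used here, nor is the genome build. FPKM sums ranged from 259184 to 272235 per library. The number of fragments is unknown, so no counting interval is given.

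Of 41041 gene IDs, 41002 matched an entry of the name table and 29784 carried a symbol. The 12662 genes with a mean of at least 1 FPKM over all 9 libraries were kept. Values were taken as log2(FPKM + 1), which understates changes of low genes. A linear model with a term per group was fitted to all 9 libraries with limma, using a mean-variance trend, for the contrast SFN+5-FU minus SFN. Two-sided p-values were adjusted over the 12662 genes by the Benjamini-Hochberg method, with a threshold of 0.05. The fit was repeated without the library labelled SFN replicate 2, which leaves 2 SFN libraries. The fit was tested on simulated data with 200 changed genes, with noise drawn independently for each gene and library. No simulated library resembled another group as SFN replicate 2 does, so the simulation does not bear on that library.

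The comparison, lists and genes were chosen with earlier results of these data known. The rule for named genes asked for large changes called in both fits, which no gene with a symbol met. It then took the 5 largest changes in each direction called without SFN replicate 2 at a mean of at least 5 FPKM, the 2 most abundant tested members of each list without a member called in both fits, and a fixed set of genes, of which DPYD, TYMP and ABCG2 were under the filter. Others were named after their values were seen. Some listed genes and a gene list are not reported here.

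Alternatives changed the filter, the pseudocount (0.1 or 5), the scaling, the library weights, the libraries entered and the replicate block. A correction for GC content and length (12504 genes with values) and leaving out a second library were added after seeing the data. Promoter windows came from RefSeq (GRCh38.p14). Versions were R 4.3.3, limma 3.58.1, Biostrings 2.70.1, Python 3.11.15, pandas 2.3.3 and matplotlib 3.10.9.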

Additional observations from a re-analysis of the deposited data

How the results depend on the processing

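With all 9 libraries, 0 genes passed when only the 6 libraries compared were fitted and 0 with the replicate block, against 1371 higher and 1157 lower, and 2136 higher and 1649 lower, at an unadjusted p of 0.05 in limma. Library weights gave 7432 calls, with weights of 0.419, 0.0893 and 3.03 for SFN replicates 1, 2 and 3. Of these calls, 6295 were among those made without SFN replicate 2. The weights were estimated from the same values, so this overlap is no independent evidence. Leaving out 1 library gave 0 to 6478 genes, with 0 or 1 for every library but SFN replicate 2. Without an expression filter, the 1 gene called was higher and not among the 6478 genes called without SFN replicate 2, which were sought among the 12662 filtered genes only. Without SFN replicate 2, the 6478 calls became 3976 at a mean of at least 5 FPKM, where fewer genes are tested. They ranged from 5001 to 6554 when a further library was left out, and were 5767 with the replicate block. Replicate numbers were not treated as pairing. Of 9 correlations of deviations between libraries of the same number, 1 was above 0.1 (range -0.143 to 0.107). Deviations in the SFN group were taken from a mean that includes SFN replicate 2, so these correlations cannot decide whether libraries were paired. Depth limits could not be judged from FPKM.

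Of the 176 genes named here that were called without SFN replicate 2, none changed direction under any alternative run, and 19 missed the threshold under at least 1 alternative other than leaving out a library, 15 of them with no expression filter. The genes whose direction changed had not passed in either fit, and their differences lay within 0.1 of 0, except for LYZ at -0.24 without SFN replicate 2 and -0.51 with all 9 libraries. The cause was not tested.

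The GC and length correction gave log2 differences of 0.05 for AKT1, -0.06 for ANKRD1, -0.01 for CYCS, -0.05 for HIF1A and -0.02 for VIM with all 9 libraries. Library weights gave log2 differences of -0.01 for ANKRD1, -0.08 for EGR1, -0.04 for H2BC12, -0.03 for HIF1A and 0.01 for OAZ1 with all 9 libraries. Median-of-ratios scaling gave log2 differences of -0.02 for ANKRD1 with all 9 libraries. Quantile normalization gave log2 differences of 0.01 for CALR and -0.02 for HIF1A with all 9 libraries. Leaving out 1 library of the 9 gave -0.08 to 0.09 for ANKRD1, -0.08 to 0.01 for CALR, -0.1 to 0.13 for CXCL8, -0.01 to 0.12 for EGR1, -0.04 to 0.02 for GAPDH, -0.03 to 0.11 for HIF1A, -0.04 to 0.09 for MDM2, -0.05 to 0.01 for MYC, -0.05 to 0.03 for OAZ1, -0.06 to 0.01 for TUBB4B and -0.02 to 0.1 for VIM. The GC and length correction gave log2 differences of 0.07 for AKT1, -0.04 for ANKRD1, -0.01 for CYCS, -0.04 for EGR1, -0.11 for HIF1A and -0.03 for VIM without SFN replicate 2. Median-of-ratios scaling gave log2 differences of -0.04 for EGR1, -0.04 for HIF1A and -0.01 for VIM without SFN replicate 2. Quantile normalization gave log2 differences of 0.03 for CALR, -0.06 for HIF1A and 0.01 for OAZ1 without SFN replicate 2. Leaving out 1 library besides SFN replicate 2 gave -0.08 to 0.02 for AKT1, -0.07 to 0.23 for ANKRD1, -0.17 to 0.01 for CALR, -0.27 to 0.18 for CXCL8, -0.1 to 0.16 for EGR1, -0.04 to 0.01 for GAPDH, -0.05 to 0.2 for H2BC12, -0.07 to 0.13 for HIF1A, -0.48 to 0.01 for LYZ, -0.11 to 0.01 for MT-ND1, -0.06 to 0.03 for OAZ1 and -0.01 to 0.12 for VIM.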
